A study of Mus musculus with 292 samples.

Results

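The hypothalamus was compared between zeitgeber time 12 (ZT12) and ZT15 in wild-type C57BL/6J male mice. ZT is by convention the time since lights-on, so ZT12 is the usual hour of lights-off and ZT15 lies 3 h into darkness; the light schedule itself was not stated in the labels. The members were the 18 hypothalamus libraries labelled ZT12 (12 libraries) or ZT15 (6 libraries), out of 292 libraries of the series, and they were chosen by label alone. All mice were 26 weeks old, and the labels name no treatment, mutation or transgene in either group. The study took cortex, striatum, hypothalamus and liver every 3 h over 36 h and sequenced their messenger RNA. ZT12 was sampled at 12 h and again at 36 h, with 6 mice each, while ZT15 was sampled at 15 h alone. The labels give each library its own mouse code, and all 18 mice also had a cortex and a liver library. The hypothalamus was taken as bulk tissue, so fewer cells of a type and less RNA per cell cannot be told apart.

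The hypothalamus holds the suprachiasmatic nucleus, which receives light from the retina and sets the phase of clocks elsewhere in the body, and the neurons that drive feeding, arousal, body temperature and hormone release. In each cell the clock is a transcriptional loop: ARNTL (BMAL1) and CLOCK switch on the period and cryptochrome genes, whose proteins then switch off their own transcription. Mice are nocturnal, and lights-off begins their main bout of activity and feeding, when body temperature also goes up. Heat shock factor is known to read such temperature cycles, and its targets are chaperones that fold proteins in the cytosol; the chaperones of the endoplasmic reticulum (ER) answer instead to the load of secreted and membrane protein.

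The libraries held 30298090 to 40615858 counts in all. Values in single libraries are CPM, the count divided by the library total and scaled to 1000000 counts. The total includes Gm42418, a gene model over ribosomal RNA sequence, which took 0.415 to 10.2% of a ZT12 library and 0.268 to 5.29% of a ZT15 library. All 10 markers of hypothalamic neurons (peptide genes such as Pmch, Avp and Trh) were detected, and their summed level was 1286 to 2057 CPM at ZT12 and 601 to 1623 CPM at ZT15. A pair of libraries stood apart in markers of neighbouring tissue. In ZT15 replicate 5 the 6 markers of striatal projection neurons summed to 531 CPM, against 104 to 114 CPM in the other ZT15 libraries and 94.2 to 108 CPM at ZT12, and the same library had the lowest sum of hypothalamic markers. In ZT12 replicate 1 the 5 markers of thalamic neurons summed to 229 CPM, against 96.4 to 126 CPM in the other ZT12 libraries.

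**Figure D1:**
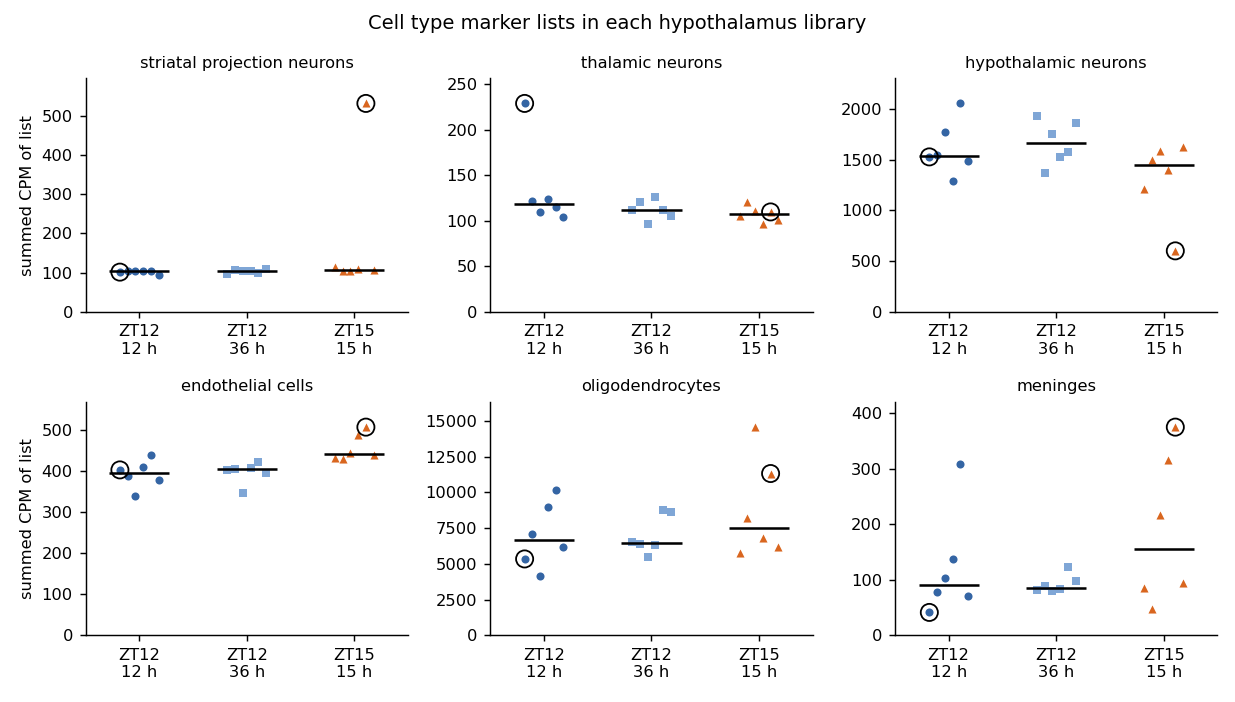
Summed CPM of 6 marker lists in each hypothalamus library, for ZT12 at 12 h, ZT12 at 36 h and ZT15 at 15 h; bars are medians, and circles mark ZT12 replicate 1 and ZT15 replicate 5. ZT15 replicate 5 reaches 531 CPM in striatal markers and 601 CPM in hypothalamic markers, and ZT12 replicate 1 reaches 229 CPM in thalamic markers, while the endothelial sums are 430 to 507 CPM at ZT15 and 339 to 440 CPM at ZT12.

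Of 19215 genes tested, 595 (3.1%) differed between ZT15 and ZT12 at a Benjamini-Hochberg adjusted p under 0.05 by edgeR's quasi-likelihood test. More of them were higher at ZT15 (371 genes, 1.93% of those tested) than lower (224 genes, 1.17%). Most changes were small: the median absolute change of the called genes was 0.37 on the log2 scale, and 142 genes (0.739%) passed with a change of 1.5-fold or more, 73 up and 69 down. In CPM, all 6 ZT15 libraries lay above all 12 ZT12 libraries for 72 genes (0.375% of those tested) and below them for 43 genes (0.224%). The median change over all genes was 0.01. Without ZT15 replicate 5 and ZT12 replicate 1 the test called 235 genes, 220 of them among the 595, and with the 6 ZT12 libraries of the first cycle alone it called 15, all among the 595. Leaving out ZT15 replicate 5, 1 or 3 alone left 282, 305 or 349 calls.

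Many cytosolic chaperones rose in the first 3 h after ZT12. Of the 21 members, 13 rose, none fell, and all 21 had a positive estimate, with a median change of 0.22 against 0.01 for all genes. Of all genes tested, 1.93% rose and 1.17% fell. The ZT15 libraries lay entirely above the ZT12 libraries in 7 of the 21, where 0.375% of all genes did so. DESeq2 called 16 of the 21 higher, adding Hspa8, Hsp90aa1 and Hspd1, where it called 641 of all 19215 genes higher. The members that passed by edgeR span the heat shock proteins HSP70 and HSP90, their partners, and the small heat shock proteins.

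Among the HSP70 proteins, Hspa1b (chromosome 17, 34956436 to 34959238), the stress-inducible form, had 0.878, 1.13 and 1.42 CPM as its lowest, median and highest value at ZT12 and 2.03, 5.12 and 9.12 CPM at ZT15. Every ZT15 library was above every ZT12 library, yet the ZT15 libraries spread from 2.03 to 9.12 CPM, far wider than the ZT12 libraries. The change was 2.24 ± 0.245 (log2, SE), or 4.74-fold, with an edgeR adjusted p of 4.9e-05. Its near-identical neighbour Hspa1a went from a median of 2.41 CPM to 5.69 CPM, a rise of 1.17 ± 0.197 with overlapping groups (edgeR adjusted p = 0.00334). Reads from these copies can be assigned to either gene, so how the rise divides between them is uncertain. The constitutive HSP70, Hspa8, with medians of 389.7 and 449.3 CPM, did not pass (0.18 ± 0.0555, edgeR adjusted p = 0.0845).

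Cochaperones that work with HSP70 and HSP90 moved with less scatter. Chordc1, which encodes a zinc-binding partner of HSP90, had the smallest p of all 19215 genes: 59.6, 68.3 and 74.1 CPM (lowest, median, highest) at ZT12 became 86.6, 101 and 123 CPM at ZT15. No library of one group reached the other, and the rise was 1.5-fold (log2 0.58 ± 0.0581, edgeR adjusted p = 4.48e-05). Dnajb1, the main HSP40 partner of HSP70, had 49.8, 60.1 and 65.9 CPM at ZT12 and 80.2, 83.0 and 88.1 CPM at ZT15, again without overlap (0.46 ± 0.0573, edgeR adjusted p = 0.000201). Fkbp4, an immunophilin that joins HSP90 to steroid receptors, rose from 141 to 158 CPM to 174 to 201 CPM (0.28 ± 0.0416). Stip1, which bridges HSP70 and HSP90, rose from 176 to 201 CPM to 219 to 252 CPM (0.29 ± 0.0469), and Hsph1, an HSP110 nucleotide exchange factor, rose by 0.52 ± 0.0856 with groups that overlapped. Ahsa1, which speeds the ATPase of HSP90, rose by 0.22 ± 0.058, and Hsp90ab1, the constitutive HSP90, by 0.18 ± 0.041; both were apart in every library. For Hsp90aa1, the inducible HSP90, the estimate was 0.19 ± 0.0582 and did not pass (edgeR adjusted p = 0.0856).

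The small heat shock proteins hold client proteins in a soluble state. Hspb1 rose from 1.15 to 3.45 CPM (median 1.95) to 2.43 to 8.24 CPM (median 5.19), a 2.49-fold change (edgeR adjusted p = 0.00402). The processed copy Hsp25-ps1 had a similar estimate (1.24 ± 0.235), and reads of Hspb1 and its copy may be shared. Cryab, abundant in glia and muscle, rose from a median of 80.6 CPM to 125 CPM (0.76 ± 0.153), and Bag3, which recruits HSP70 to small heat shock proteins, by 0.58 ± 0.107. In all 4 of these genes at least 1 ZT15 library lay within the ZT12 range. The last of the 13 calls was Dnajb4, another HSP40 (0.21, edgeR adjusted p = 0.0223).

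**Figure D2:**
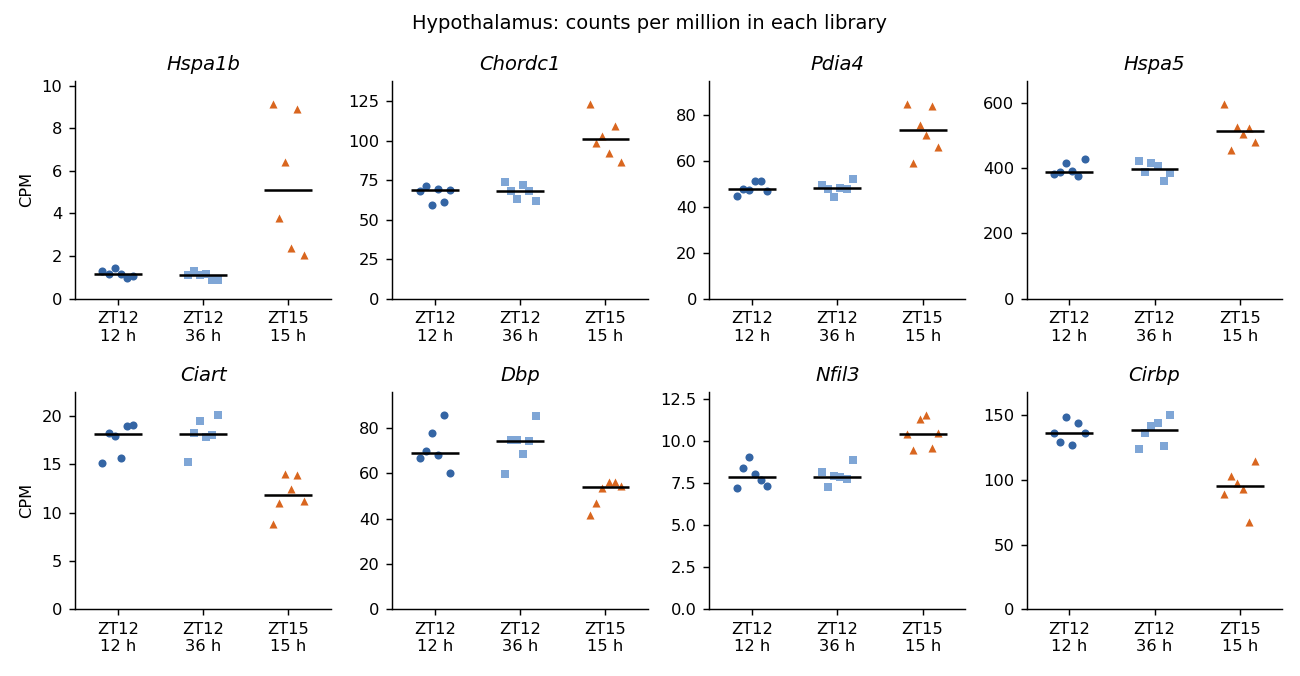
CPM of 8 genes in each hypothalamus library, for ZT12 at 12 h (6 mice), ZT12 at 36 h (6 mice) and ZT15 at 15 h (6 mice); bars are medians and each axis starts at 0. In all 8 genes the ZT15 libraries do not overlap the ZT12 libraries of either cycle, with Hspa1b at 2.03 to 9.12 CPM at ZT15 against at most 1.42 CPM at ZT12.

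Chaperones of the ER rose as well. Of 20 members, 11 rose and none fell, with a median change of 0.21, where 1.93% of all genes tested rose. In 5 members every ZT15 library exceeded every ZT12 library, as in 0.375% of all genes tested. Pdia4 (chromosome 6, 47796141 to 47813430), a protein disulfide isomerase, had 44.1, 47.8 and 52.1 CPM at ZT12 and 58.9, 73.3 and 84.5 CPM at ZT15. The groups were apart, and the rise was 1.5-fold (0.59 ± 0.0623, edgeR adjusted p = 4.48e-05). Hspa5 (BiP), the main HSP70 of the ER, had 362, 388 and 429 CPM at ZT12 and 455, 513 and 596 CPM at ZT15 (0.35 ± 0.0603, edgeR adjusted p = 0.00342). Sdf2l1, which assists BiP, rose from 6.85 to 9.54 CPM to 10.8 to 14.5 CPM (0.70 ± 0.0964, edgeR adjusted p = 0.000735). Creld2, an ER disulfide isomerase induced by ER stress, rose from 11.7 to 16.1 CPM to 18.0 to 25.7 CPM (0.54 ± 0.0714). Smaller rises that passed were those of Hsp90b1, the HSP90 of the ER (0.17 ± 0.0422), Calr, which folds glycoproteins (0.29 ± 0.0595), Pdia6 (0.22 ± 0.0475), Dnajb11 (0.28 ± 0.0635), Dnajc3 (0.34 ± 0.0887), Manf (0.36 ± 0.0965) and Xbp1, a transcription factor of the unfolded protein response (0.29 ± 0.0708). The members that mark the cell-death and amino-acid branches of ER stress did not pass: Ddit3 (CHOP) had an estimate of 0.19 ± 0.065, Atf4 0.09 ± 0.069 and Trib3 -0.17 ± 0.143.

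Both chaperone counts depended on the libraries used. Without ZT15 replicate 5 and ZT12 replicate 1, 10 cytosolic and 6 ER members passed; the ER count was also 6 without ZT15 replicate 5 alone, and 7 without replicate 1 or replicate 3. With the first-cycle ZT12 libraries alone, 3 cytosolic and 2 ER members passed.

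Promoter letters of the chaperones are shown because their members moved together. RefSeq promoter windows (build GRCm38.p6, 250 bases before to 50 after a gene start) were matched by symbol for 196 of the 244 genes on the 14 lists. The heat shock element is built from inverted repeats, searched for here as GAANNTTC or TTCNNGAA on both strands, with overlapping matches allowed. At least 1 such pair lay in the windows of 11 of 17 cytosolic chaperones and of 0 of 18 ER members. It lay in 15.1% of all 32851 windows (14.2% of tested genes with a window). Of the 11 members with a pair 8 rose, and of the 6 without one 3 rose. The longer run joins TTC, GAA and TTC, or GAA, TTC and GAA, with 2 bases between units. It lay in 4 of 17 cytosolic chaperones and in 0.603% of all windows (0.539% of tested genes with a window). Here the split went the other way: of the 4 members with a run 2 rose, and of the 13 without one 9 rose. The stretches below end at the base before the RefSeq start, except for Chordc1, and capitals mark the pairs.
Hspa1b, chr17:34959239-34959388, minus strand: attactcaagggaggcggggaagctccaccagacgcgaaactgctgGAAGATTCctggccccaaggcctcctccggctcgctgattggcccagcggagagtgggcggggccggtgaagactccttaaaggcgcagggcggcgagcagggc
Hspb1, chr5:135887769-135887918, plus strand: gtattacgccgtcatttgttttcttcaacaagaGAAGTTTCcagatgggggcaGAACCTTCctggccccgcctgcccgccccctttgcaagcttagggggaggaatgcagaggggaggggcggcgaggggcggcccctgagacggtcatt
Chordc1, chr9:18292262-18292291, plus strand: gGAACGTTCGGGAAAATTCCTGAAgcagta
The pair of Hspa1b began 104 bases before the start, and those of Hspb1 began 117 and 97 bases before it. In Chordc1, the gene with the smallest p, overlapping pairs formed an unbroken run across the start itself. The 150 bases before Hspa1a matched those of Hspa1b at 149 positions.

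The ER stress response element was searched for as CCAAT and CCACG with 9 bases between them, on both strands. It lay in the windows of 7 of 18 ER members (Calr, Canx, Creld2, Dnajc3, Hsp90b1, Hspa5 and Pdia6) and in 0 of 17 cytosolic chaperones. Of all windows 0.119% held it (0.156% of tested genes with a window). Of those 7, 6 rose and of the 11 members without it 4 rose. Capitals mark the element in 3 stretches of 150 bases that end at the base before the start.
Hspa5, chr2:34771940-34772089, plus strand: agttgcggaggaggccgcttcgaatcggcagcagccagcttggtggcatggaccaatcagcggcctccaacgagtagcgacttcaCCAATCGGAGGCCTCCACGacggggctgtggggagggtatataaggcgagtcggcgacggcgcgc
Creld2, chr15:88819496-88819645, plus strand: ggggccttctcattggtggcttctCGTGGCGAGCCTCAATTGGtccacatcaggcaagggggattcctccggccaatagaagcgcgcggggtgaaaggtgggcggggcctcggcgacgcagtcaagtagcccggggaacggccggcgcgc
Dnajc3, chr14:118937782-118937931, plus strand: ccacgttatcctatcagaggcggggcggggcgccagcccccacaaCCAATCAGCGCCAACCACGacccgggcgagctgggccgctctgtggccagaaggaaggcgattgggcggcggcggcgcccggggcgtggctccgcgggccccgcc
In Creld2 the element reads on the opposite strand of the gene. A match describes the letters and was not tested as a site.

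Of 24 clock and clock output genes, 1 rose and 3 fell, where 1.93% of all genes tested rose and 1.17% fell. The median change of the 24 was 0.05. In 1 of them every ZT15 library was above every ZT12 library and in 2 every one was below, against 0.375% and 0.224% of all genes. Leaving out ZT15 replicate 5 and ZT12 replicate 1 together gave 2 rises and 2 falls in the list, and with the level of Gm42418 as a covariate, an alternative chosen after seeing the data, 3 rose and 7 fell. Ciart (chromosome 3, 95878503 to 95882251), a repressor of CLOCK and ARNTL, fell: it had 15.2, 18.1 and 20.1 CPM at ZT12 and 8.88, 11.8 and 14.1 CPM at ZT15. All 6 ZT15 libraries were below all 12 ZT12 libraries, and the change was -0.60 ± 0.0988, or 1.51-fold lower (edgeR adjusted p = 0.00309). Dbp, an activator of clock output through D-boxes, fell likewise from 59.6, 72.0 and 85.7 CPM to 41.6, 54.0 and 56.2 CPM, with no overlap (-0.50 ± 0.0901, edgeR adjusted p = 0.00485). Nfil3, which represses through the same D-boxes, rose from 7.19, 7.89 and 9.07 CPM to 9.45, 10.4 and 11.6 CPM, also without overlap (0.38 ± 0.0735, edgeR adjusted p = 0.00855). Dbp thus fell and Nfil3 rose across the same interval. The output genes Tef (0.05, edgeR adjusted p = 0.562) and Hlf (0.15, edgeR adjusted p = 0.285) did not fall with Dbp. Fbxl21, part of a ubiquitin ligase for cryptochromes, fell by 0.32 on the log2 scale with overlapping groups (edgeR adjusted p = 0.027), a call that was lost without any 1 of ZT15 replicates 1, 3 and 5 (adjusted p up to 0.0918). With the first-cycle ZT12 libraries alone none of these 4 passed; Ciart had -0.58 and Dbp -0.49 there, close to the values above.

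The Ciart promoter is shown for its E-boxes, the sites through which CLOCK and ARNTL act. The letters CACGTG, which read the same on both strands, lay in 5 of 19 clock genes with a window (Bhlhe41, Ciart, Cry1, Per1 and Tef). They lay in 7.15% of all windows and, counted by gene as the list is, in 11% of tested genes with a window. Of the 5, only Ciart passed between ZT15 and ZT12. The 150 bases before the Ciart start held the letters at 3 places, in capitals.
Ciart, chr3:95882229-95882378, minus strand: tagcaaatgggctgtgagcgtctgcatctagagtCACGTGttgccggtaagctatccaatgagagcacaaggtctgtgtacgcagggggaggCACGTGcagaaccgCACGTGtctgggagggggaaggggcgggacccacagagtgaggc
The matches began 116, 58 and 44 bases before the start.

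The remaining 20 clock genes did not pass by edgeR, while DESeq2 also called 1 of them, Arntl, higher. Arntl, the positive arm of the loop, came closest, with medians of 28.7 CPM at ZT12 and 33.8 CPM at ZT15 (0.17 ± 0.0495, edgeR adjusted p = 0.0608). Among the negative arm, Per1 had -0.28 ± 0.11, Per2 0.05 ± 0.102, Per3 -0.03 ± 0.0855, Cry1 0.01 ± 0.052 and Cry2 -0.09 ± 0.0676. Among nuclear receptors that repress or activate Arntl, Nr1d1 had -0.17 ± 0.0897, Nr1d2 0.08 ± 0.0794, Rora -0.23 ± 0.104 and Rorb 0.07 ± 0.0666. Rora is also on the list of thalamic markers, with 82.7 CPM in ZT12 replicate 1 and at most 59.5 CPM in the other ZT12 libraries. In the fits that left out 1 library its estimate ran from -0.27 to -0.16. The activators Clock (0.13 ± 0.104) and Npas2 (0.17 ± 0.126), the kinases Csnk1d (0.04 ± 0.0489) and Csnk1e (0.03 ± 0.0392), the repressors Bhlhe40 (0.11 ± 0.045) and Bhlhe41 (0.05 ± 0.0522), and the output genes Hlf (0.15 ± 0.0742) and Tef (0.05 ± 0.0408) also stayed under the threshold.

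Cirbp, a cold-inducible RNA-binding protein, moved opposite to the chaperones. It had 123.9, 135.9 and 149.9 CPM at ZT12 and 67.7, 95.3 and 114 CPM at ZT15, so that every ZT15 library was below every ZT12 library. The fall was 1.48-fold (-0.56 ± 0.0852, edgeR adjusted p = 0.00162). Clk1, a temperature-sensitive splicing kinase, rose from a median of 180.1 CPM to 229.6 CPM with overlap (0.29 ± 0.0675, edgeR adjusted p = 0.0213), and lost its call without any 1 of ZT15 replicates 1, 3 and 5 (adjusted p up to 0.0824), and without ZT15 replicate 5 and ZT12 replicate 1 together (adjusted p = 0.107). Rbm3, another cold-inducible gene, did not pass (0.07 ± 0.0529). Body temperature was not measured in the sources used here.

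Immediate early genes, transcribed in neurons soon after they fire, gave 3 rises among 26 and no fall, with a median change of 0.15. Of all genes tested, 1.93% rose. DESeq2 called 6 of the 26 higher, adding Atf3, Dusp6 and Homer1, where it called 641 of all 19215 genes higher. None of the 26 rose in the edgeR fit without ZT15 replicate 5 and ZT12 replicate 1 together (0 calls higher), or in the fit with the first-cycle ZT12 libraries alone (0 calls higher). Nr4a3, an orphan nuclear receptor, had 3.72, 4.39 and 7.18 CPM at ZT12 and 5.74, 7.39 and 8.50 CPM at ZT15 (0.60 ± 0.122, edgeR adjusted p = 0.0107), and without both of those libraries it had an edgeR adjusted p of 0.0534. Fosl2, a FOS family member, had medians of 8.30 and 12.8 CPM (0.60 ± 0.136, edgeR adjusted p = 0.0193), and its call was lost without ZT15 replicate 1 or replicate 5 (adjusted p up to 0.0716). Nr4a2, also a marker of dopamine neurons, rose from a median of 8.57 CPM to 17.7 CPM (0.82 ± 0.221, edgeR adjusted p = 0.0467), with ZT15 libraries from 7.47 to 24.1 CPM, and kept its call in 4 of the 18 fits that left out 1 library. In all 3 genes the groups overlapped. Fos itself had medians of 7.35 and 7.94 CPM (-0.01 ± 0.207), and Arc, Nr4a1, Junb and Npas4 did not pass either.

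Feeding and arousal peptides did not pass. Of 20 tested, 0 were called by edgeR at the adjusted threshold and 0 by DESeq2; at an unadjusted p under 0.05 edgeR gave 1 lower and 0 higher. Their median change was -0.21, and 16 of 20 estimates were negative. The smallest p belonged to Crh, corticotropin-releasing hormone, with 1.33 to 4.51 CPM at ZT12 and 0.967 to 2.697 CPM at ZT15 (-0.62 ± 0.265, edgeR adjusted p = 0.209). Such peptides are made in small nuclei: Hcrt, the orexin gene, ranged from 26.6 to 199.6 CPM at ZT12 alone and from 7.76 to 156 CPM at ZT15. Beside these negative estimates stands the lower sum of hypothalamic markers in ZT15 replicate 5, which is not a separate measure. The marker list shares Hcrt, Pmch, Agrp, Pomc and Trh with the peptides, and Avp and Oxt with the suprachiasmatic genes. Pmch alone had 325.7 CPM in that library. Of the markers that are not peptides, Sim1 (16.93 CPM) and Nkx2-1 (23.92 CPM) lay within the ZT12 range there. Otp (15.84 CPM) lay below its lowest ZT12 value of 29.0 CPM. Single peptide genes were also low in other ZT15 libraries. In ZT15 replicate 2, Pomc had 4.977 CPM (other ZT15 libraries 28.85 to 80.72, lowest ZT12 value 32.52). Agrp had 0.2781 CPM there (other ZT15 libraries 3.206 to 8.086, lowest ZT12 value 1.533). In ZT15 replicate 4, Vip had 1.188 CPM (other ZT15 libraries 14.08 to 30.73, lowest ZT12 value 10.02). The part of these libraries in the peptide and suprachiasmatic estimates was not tested. Of 15 feeding and arousal receptors 1 passed, where 3.1% of all genes tested did. It was Hcrtr2, an orexin receptor, which rose by 0.29 ± 0.0788 (edgeR adjusted p = 0.048). The call was kept in 2 of the 18 fits that left out 1 library. It was lost without ZT15 replicate 5 and ZT12 replicate 1 together (edgeR adjusted p = 0.091). Suprachiasmatic and posterior pituitary genes gave 0 calls of 15 by edgeR and 0 by DESeq2, with 1 higher and 2 lower at an unadjusted p under 0.05. Rgs16, a G protein regulator of the suprachiasmatic nucleus, had the smallest p (-0.34 ± 0.112, edgeR adjusted p = 0.109). It is also on the list of thalamic markers, and its highest ZT12 value was in ZT12 replicate 1 (37.4 CPM, next 36.6 CPM).

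**Figure D3:**
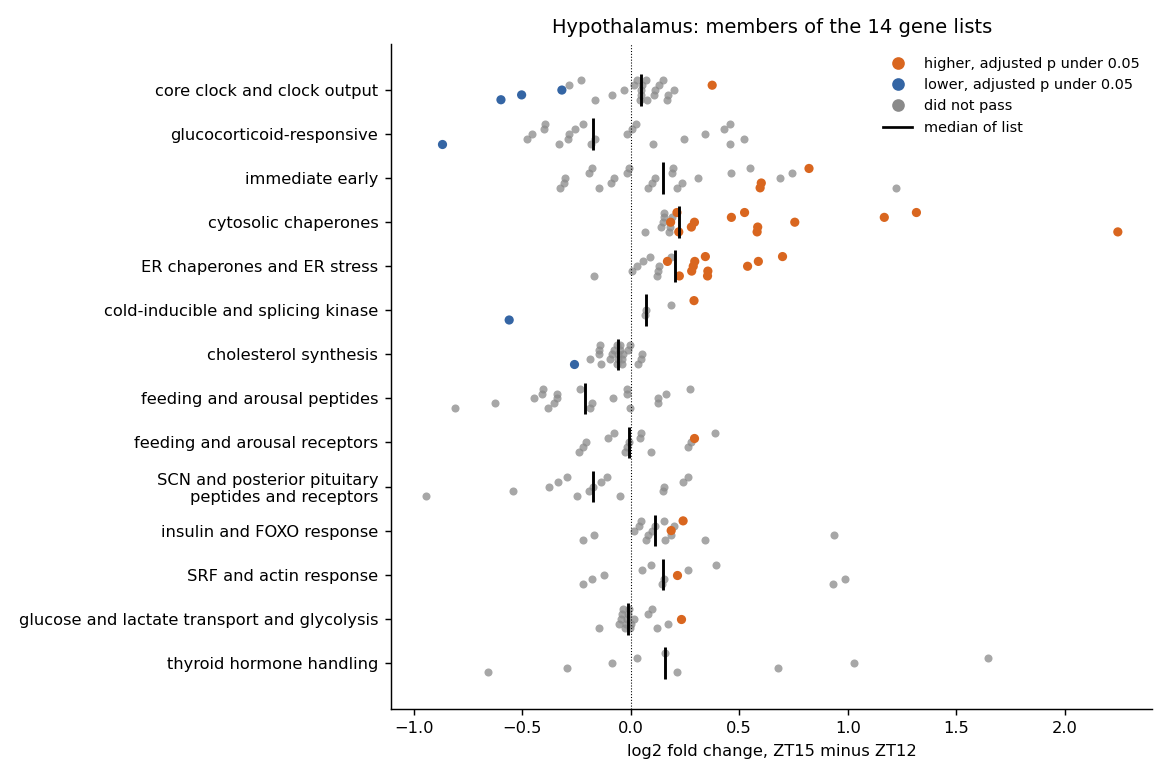
Log2 fold change (ZT15 minus ZT12) of each tested member of 14 gene lists in the hypothalamus, with colour for members at an adjusted p under 0.05 and a bar at each list's median. The chaperone lists hold 13 and 11 rises and no fall, with medians of 0.22 and 0.21, while the clock list is centred at 0.05 with 1 rise and 3 falls.

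Each of the other lists held at most 2 calls, where 1.93% of all genes tested rose and 1.17% fell. Of 22 glucocorticoid-responsive genes, 1 fell and 0 rose; DESeq2 also called 0 higher, and at an unadjusted p under 0.05 edgeR gave 6 higher and 5 lower. That gene was Hif3a, a hypoxia-inducible factor subunit, which had 11.7, 17.03 and 22.7 CPM at ZT12 and 3.60, 9.96 and 12.98 CPM at ZT15. Its groups overlapped, and the change of -0.87 ± 0.182 (1.83-fold lower, edgeR adjusted p = 0.0119) passed. Of 23 cholesterol synthesis genes, Insig1, which holds back sterol synthesis, fell (-0.26 ± 0.0703, edgeR adjusted p = 0.0449), and 20 of 23 estimates were negative with a median of -0.06. In the insulin and FOXO list Foxo4 (0.24 ± 0.0537) and the pseudokinase gene Trib2 (0.19 ± 0.0457) rose, 2 of 17. Tpm4, an actin-binding tropomyosin, rose as 1 of 12 serum response factor targets (0.22 ± 0.0546). Pfkfb3, which makes the allosteric activator of glycolysis, rose as 1 of 18 glycolytic and transport genes (0.23 ± 0.0599). Of the 18 fits that left out 1 library, Foxo4 kept its call in 15, Trib2 in 14, Tpm4 in 8, Pfkfb3 in 7 and Insig1 in 4, and each of the 5 lost it without ZT15 replicate 1 and without ZT15 replicate 5. None of the 5 passed without ZT15 replicate 5 and ZT12 replicate 1 together, while the glucocorticoid list then held 2 falls. Of 9 genes of thyroid hormone handling 0 passed by edgeR, with 3 higher and 1 lower at an unadjusted p under 0.05, while DESeq2 called Dio2 higher and Hr lower; Hr had the smallest p (-0.29 ± 0.0883, edgeR adjusted p = 0.0751).

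The largest rises outside the chaperones were of mixed standing. Adora2a, an adenosine receptor of striatal neurons, had 36.6 CPM in ZT15 replicate 5 and 1.53 to 1.88 CPM in the other ZT15 libraries, and without that library its change was 0.19 (edgeR adjusted p = 0.691) in place of 2.34. Slc6a3, the dopamine transporter, had 72.7 CPM in replicate 5, 25.5 CPM in replicate 4 and 2.53 to 7.92 CPM in the rest, and its change went from 1.81 to 0.73 (edgeR adjusted p = 0.37) without replicate 5. Ankrd63 went from 2.24 to 0.75 without it and stayed called (edgeR adjusted p = 0.0417). These values stand beside the striatal marker sum of 531 CPM in that library. Other large rises did not rest on it: Rab39, a small GTPase, rose from 1.21 to 2.35 CPM to 2.56 to 4.55 CPM with no overlap (0.96 ± 0.14), and Itga10, an integrin subunit, rose from a median of 5.17 CPM to 10.1 CPM (0.88 ± 0.157). Tm6sf2, known for lipid export in liver, rose by 1.15 ± 0.205, Dnase1l2 by 0.93 ± 0.153 and Depdc7 by 0.86 ± 0.182; each kept its call in all 18 fits that left out 1 library. Fbxw23 (1.13 ± 0.284) and Chdh, a choline dehydrogenase (0.85 ± 0.215), kept theirs in 11 and 9 of the 18. Without ZT15 replicate 5 both lost the call, with changes of 1.10 (edgeR adjusted p = 0.0853) and 0.81 (edgeR adjusted p = 0.102). Of the exonic bases of Itga10, 33.5% are shared with another gene model, so its reads may be divided.

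The largest falls were steadier across libraries. Lrrc29 had 3.98, 4.70 and 5.56 CPM at ZT12 and 2.47, 2.85 and 3.28 CPM at ZT15, apart in every library (-0.73 ± 0.0953, edgeR adjusted p = 0.000401). Acr, the acrosomal protease of sperm, was at 2.87 to 4.39 CPM at ZT12 and 1.28 to 2.77 CPM at ZT15 (-0.70 ± 0.148), and Klhdc9 at 5.13 to 8.59 and 3.53 to 5.02 CPM (-0.69 ± 0.119). Ccdc116 (-0.54 ± 0.1), Fam83h (-0.56 ± 0.114) and Fam71e1 (-0.56 ± 0.122) were also apart in every library. Tipin, which guards the replication fork with TIMELESS, fell by 0.52 on the log2 scale, and Lrriq1 by 0.53. All 8 of these kept their call in all 18 fits that left out 1 library, while Neurl2 (-0.52 ± 0.119) and Arhgef16 (-0.55 ± 0.141) kept theirs in 16 and 7.

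Genes of the vessel wall and of myelin were also among the calls. Cldn5, the claudin that seals the blood-brain barrier, had 11.7, 13.2 and 15.7 CPM at ZT12 and 18.6, 21.1 and 23.2 CPM at ZT15. The groups did not overlap, and the rise was 1.56-fold (0.64 ± 0.0687, edgeR adjusted p = 4.48e-05). Mfsd2a, a lipid transporter of barrier endothelium, rose by 0.25 ± 0.055 and Flt1, a receptor for vascular endothelial growth factor, by 0.40 ± 0.101. These were 3 of 11 endothelial markers, where 1.93% of all genes tested rose and 1.17% fell. None of the 11 fell, none was at 0 in all libraries, and the summed level was 339 to 440 CPM at ZT12 and 430 to 507 CPM at ZT15. Plvap, a component of fenestrated endothelium, went the other way, from 10.51 to 14.7 CPM to 6.25 to 11.7 CPM (-0.56 ± 0.121, edgeR adjusted p = 0.0146). Opalin, a membrane protein of oligodendrocytes, fell from a median of 31.9 CPM to 21.7 CPM (-0.66 ± 0.137), 1 of 7 oligodendrocyte markers, while the sum of that list was 4159 to 10200 CPM at ZT12 and 5794 to 14570 CPM at ZT15. Of the astrocyte, microglia, mural, ependymal, tanycyte, choroid plexus, meningeal, pituitary and blood lists, 0 members passed by edgeR, and each list held at most 2 higher and 1 lower at an unadjusted p under 0.05. DESeq2 called 1 of them, the pituitary gene Prl, lower. Neurod2, 1 of 5 markers of cortical excitatory neurons, rose; that list summed to 6.79 to 20.7 CPM at ZT12 and to 7.24 to 15.6 CPM at ZT15 except in replicate 5, with 34.7 CPM. Meningeal genes summed to 41.3 to 309 CPM at ZT12 and 47.6 to 375 CPM at ZT15, and pituitary genes to 0.649 to 201 CPM and 1.001 to 34.3 CPM. The part of these sums in the results of the other genes was not tested.

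The same 18 mice gave cortex and liver, and the count of calls was larger in both. The test called 6239 of 18406 genes (33.9%) in cortex, 17.1% higher and 16.8% lower, and 4142 of 15085 (27.5%) in liver, 14.1% higher and 13.4% lower, against 3.1% in hypothalamus. Of 577 hypothalamus calls also tested in cortex, 385 (66.7%) passed there in the same direction and 16 in the opposite one; the 385 are 6.17% of the cortex calls. In liver 155 of 447 (34.7%) passed in the same direction and 44 in the opposite one. The tissues share mice, so their values are not independent. A direct test of the difference in change (tissue by ZT, with the mouse as a block) called 1017 of 19934 genes (5.1%) against cortex, 566 (2.84%) with the change higher in hypothalamus and 451 (2.26%) lower. With the first-cycle ZT12 libraries alone it called 23 genes against cortex, 5 higher and 18 lower, so the direction of that split turned. Against liver it called 1962 of 20271 genes (9.68%), 1166 (5.75%) higher and 796 (3.93%) lower. With DESeq2's size factors in place of TMM the liver split became 884 and 916.

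Cytosolic chaperones rose in all 3 tissues: all 13 that rose in hypothalamus also rose in cortex and in liver. Of all hypothalamus calls tested there, 66.7% passed in the same direction in cortex and 34.7% in liver. Against cortex 1 of 21 differed, where 5.1% of all genes tested did. It was Hspa1b, whose rise was larger in hypothalamus (difference 0.67 ± 0.182, edgeR adjusted p = 0.0368, with 1.44 ± 0.146 in cortex). Against liver 11 of 21 differed, where 9.68% of all genes tested did, and all 11 had the smaller change in hypothalamus. Hsp90aa1 had 0.19 in hypothalamus and 1.85 ± 0.14 in liver (difference -1.63 ± 0.14, edgeR adjusted p = 2e-07), and Hsph1 0.52 and 1.79 ± 0.155 (difference -1.25 ± 0.134). Of 20 ER members 6 differed from cortex, where 5.1% of all genes tested did. Each of the 6 was weaker in hypothalamus, such as Hspa5 (0.35 against 0.90 ± 0.0661, difference -0.53 ± 0.0733, edgeR adjusted p = 0.000408) and Sdf2l1 (0.70 against 1.31 ± 0.131, edgeR adjusted p = 0.0372).

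Immediate early genes moved in cortex more than in hypothalamus. In cortex 18 of 26 rose and 1 fell, with a median of 0.72, against 3 rises and a median of 0.15 in hypothalamus. Of all genes tested in cortex, 17.1% rose and 16.8% fell. The change itself differed in 14 of 26, with the hypothalamus lower in 13, where 5.1% of all genes tested differed and 2.26% were lower. Fos rose by 1.32 ± 0.221 in cortex (difference -1.33 ± 0.195, edgeR adjusted p = 0.00083), Arc by 1.77 ± 0.273 (difference -1.56 ± 0.268, edgeR adjusted p = 0.00328) and Nr4a1 by 0.94 ± 0.156 (difference -1.08 ± 0.146, edgeR adjusted p = 0.000393). Nr4a2 was the exception, higher in hypothalamus with a cortex estimate of -0.35 ± 0.153 (difference 1.121 ± 0.294, edgeR adjusted p = 0.0335).

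**Figure D4:**
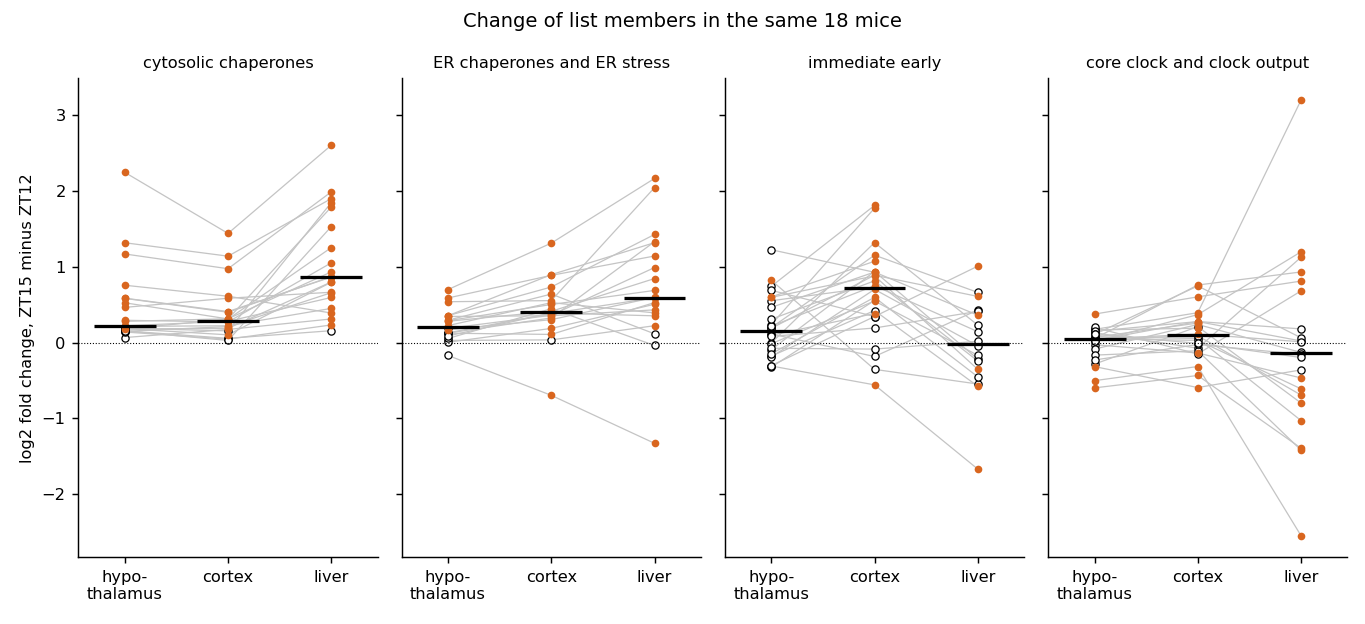
Log2 fold change (ZT15 minus ZT12) of the members of 4 gene lists in hypothalamus, cortex and liver of the same 18 mice; grey lines join a gene, filled points passed at an adjusted p under 0.05, open points did not, and bars are medians. Immediate early genes have medians of 0.15 in hypothalamus and 0.72 in cortex, and cytosolic chaperones 0.22, 0.28 and 0.86 in hypothalamus, cortex and liver.

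Among clock genes the change differed from cortex in 6 of 24 and from liver in 14 of 24, where 5.1% and 9.68% of all genes tested did. All 6 were lower in hypothalamus than in cortex: Bhlhe40, Cry1, Cry2, Csnk1e, Per1 and Per2. Per2 had 0.05 in hypothalamus, 0.76 ± 0.0669 in cortex and 0.93 ± 0.0928 in liver, and both differences passed (-0.74 ± 0.11 and -0.87 ± 0.126, edgeR adjusted p = 0.000989 and 8.23e-05). Arntl had 3.20 ± 0.229 in liver (difference -3.00 ± 0.264, edgeR adjusted p = 2.24e-07), and Dbp fell by 2.55 there on the log2 scale (difference 2.12 ± 0.186, edgeR adjusted p = 2.24e-07). Cirbp fell in each tissue, by 0.56, 0.54 and 0.54 on the log2 scale in hypothalamus, cortex and liver, and the differences (-0.04 ± 0.0857 from cortex, -0.002 ± 0.116 from liver) did not pass.

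The genes with the smallest p for a difference from cortex were Bhlhe40, a clock repressor (-0.63 ± 0.0717), Cbln4, a synaptic organizer (-1.22 ± 0.145), Lemd1 (0.85 ± 0.0994), and the pseudokinase genes Trib1 (-1.26 ± 0.155) and Trib2 (-0.56 ± 0.0676). The change was lower in hypothalamus in 4 of these 5. The exception, Lemd1, rose in hypothalamus (0.30 ± 0.0666) and had -0.55 ± 0.0561 in cortex. Against liver they included Pde9a, a cyclic GMP phosphodiesterase (-1.48 ± 0.119), Pnkd (-1.36 ± 0.111), Slc5a6, a vitamin transporter (1.15 ± 0.0929), and Hsp90aa1. None of these 4 liver genes passed in hypothalamus.

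Mean levels over the whole day place the interval within longer courses. Chordc1 was at 67.2 ± 4.57 CPM (mean ± SD, n = 12) at ZT12 and 102 ± 12.99 CPM (n = 6) at ZT15, and then 102, 104.5 and 109.7 CPM at ZT18, ZT21 and ZT0. Pdia4 had its highest mean at ZT15 (73.3 ± 10.04 CPM, n = 6), as did Hspa1b (5.44 ± 3.16 CPM, n = 6), whose ZT18 mean was 3.16 CPM. Cldn5 had its lowest mean at ZT12 (13.4 ± 1.295 CPM, n = 12) and a mean of 27.35 CPM at ZT0. Ciart and Cirbp had their highest means at ZT12 (17.8 ± 1.64 and 137 ± 8.88 CPM, n = 12), whereas Dbp was higher at ZT9 (76.5 CPM) than at ZT12 (72.1 CPM). Hif3a had its highest mean at ZT12, 17.03 ± 3.20 CPM (n = 12), and its lowest at ZT3, 3.195 CPM. These means are descriptions and neighbouring times were not tested, other than ZT12 against ZT15.

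**Figure D5:**
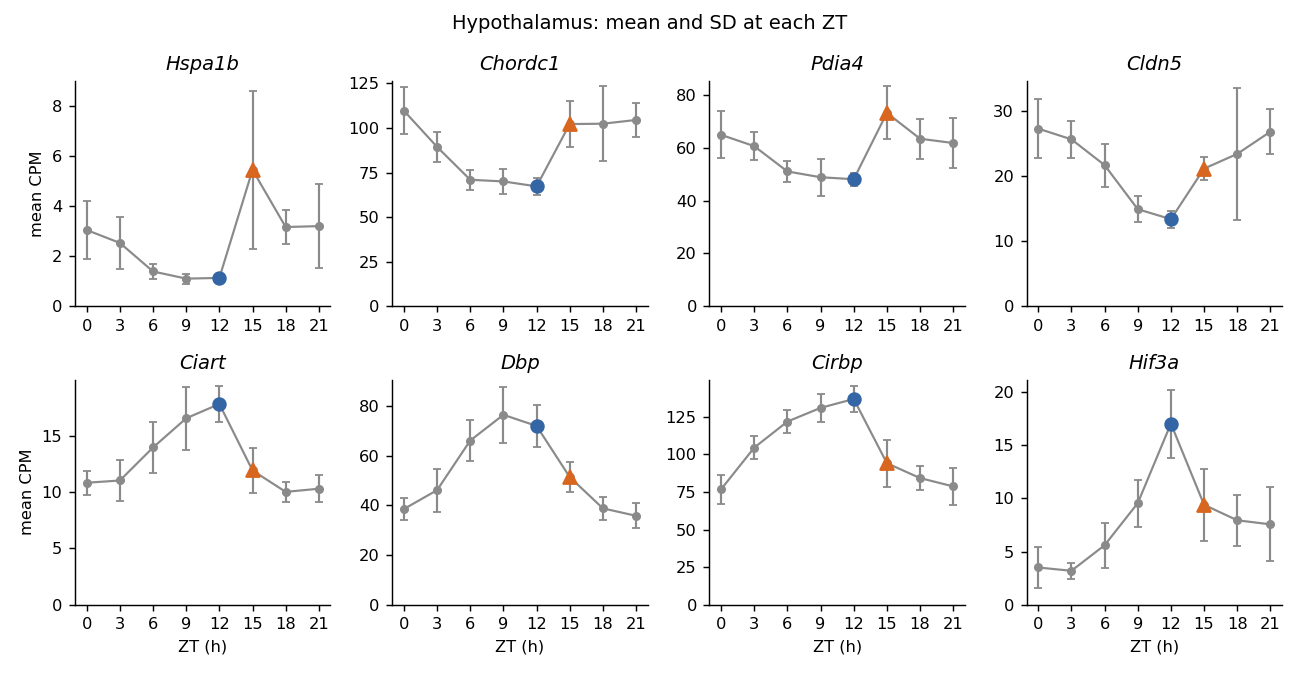
Mean CPM and SD of 8 genes in the hypothalamus at each ZT (h), over 6 to 12 libraries, with ZT12 as a blue circle and ZT15 as an orange triangle. Hspa1b and Pdia4 have their highest mean at ZT15, and Ciart, Cirbp and Hif3a at ZT12.

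Both ZT12 samplings were also set against each other. Between 36 h and 12 h, edgeR called 0 of 18862 genes and DESeq2 called 0; at an unadjusted p under 0.05 edgeR gave 222 and DESeq2 194. The smallest p values belonged to Btbd16 (36 h minus 12 h, 0.52 ± 0.122), Hs3st3b1, a heparan sulfate enzyme (-0.72 ± 0.187), and BB187690 (-0.51 ± 0.141), each with an edgeR adjusted p of 1. None of these 3 passed between ZT15 and ZT12.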

How the data were processed

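Messenger RNA was sequenced from bulk tissue of single mice. The counts are the reads per gene that the authors deposited, 1 table per tissue, and the tools listed by the submitters' processing notes are HTSeq 0.10.0 and STAR 2.7.3a, beside the builds mm10 and GRCm38; the notes give neither role nor order. Which annotation release and strand option were used is not given in the sources used here, so reads of overlapping genes may be divided. The deposited FPKM values of the authors were kept as levels per length and entered no test. Of 48795 gene identifiers, 48349 were matched to a symbol and a GENCODE position.

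Groups came from the sample labels, and 0 columns of the tables used were left unmapped. Genes passing edgeR's low-count filter were tested with edgeR 4.0.16 in R 4.3.3 (quasi-likelihood, TMM scaling, Benjamini-Hochberg adjustment over all genes tested, called at 0.05), with a further count at 1.5-fold or more. Standard errors were derived from the F statistic. Differences between tissues were tissue by ZT terms with the mouse code as a block. The labels do not say whether replicates came from separate cages or sampling days, so p-values measure the spread between mice as sampled. The scripts were tested on simulated data. DESeq2 1.42.0, other scaling, filters, blocks and library choices were alternatives; leaving out both libraries that stood apart, and a Gm42418 covariate, were added after seeing the data.

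The members and gene lists (14 functional, 18 of markers) were chosen with earlier results of these data known. Named genes were all 24 clock genes, the 15 largest rises and 15 largest falls among genes averaging 1 or more in log2 CPM, up to 4 called members by lowest adjusted p from each other list (or the 1 with the smallest p), the 5 genes with the smallest p for each tissue difference and 3 between cycles; other genes were named as list members after their values were seen. Some genes that the rule names are not reported here.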

Additional observations from a re-analysis of the deposited data

Results flagged for a closer look

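Single libraries stood far from the other 5 of the ZT15 group in 7 of the 83 named genes. The measure was the gap between the extreme library and its nearest neighbour, and chance marks about 1 in 20 groups in this way. Replicate 5 was the extreme in 4 of them: Adora2a (36.6 CPM, others 1.535 to 1.88), Ankrd63, an ankyrin repeat gene (25.2 CPM, others 1.08 to 2.93), Slc6a3 (72.65 CPM, others 2.53 to 25.5) and Npas2, a partner of ARNTL (17.7 CPM, others 8.48 to 10.49). Replicate 1 was the highest in 2 chaperone genes, Fkbp4 (200.9 CPM, others 174 to 180.3) and Hsp90aa1 (417 CPM, others 316 to 341). Replicate 4 was the lowest in Cry1 (22.4 CPM, others 26.03 to 27.9). Adora2a, Ankrd63 and Slc6a3 were named for their large rises, which were smaller without replicate 5. Their flags are thus not independent of how the genes were chosen.

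The change from ZT12 to ZT15 differed between tissues in 1017 genes against cortex and in 1962 genes against liver, by edgeR's test of the difference. The strongest differences from cortex, as hypothalamus minus cortex on the log2 scale, were -0.63 for Bhlhe40, -1.22 for Cbln4, 0.85 for Lemd1, -1.26 for Trib1 and -0.56 for Trib2. Those from liver included -1.63 for Hsp90aa1, -1.48 for Pde9a, -1.36 for Pnkd and 1.15 for Slc5a6.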

How the results depend on the processing

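None of the named genes' called changes reversed under the alternatives run, while the count of calls moved widely and the split of the tissue differences turned under some. In place of 595 genes between ZT15 and ZT12, DESeq2's Wald test called 1045 (591 shared), no filter on low counts 330, a fit on all 77 hypothalamus libraries 963, a Gm42418 covariate 1589 (523 shared, 54.4% higher against 62.4%), the first-cycle ZT12 libraries alone 15, the second-cycle ones alone 46, the L code of the sample names as a block 11, and leaving out ZT15 library 5 and ZT12 library 1 235; DESeq2's size factors gave 592. At 1.5-fold or more, in place of 142, the covariate gave 283, all 77 libraries 244, the first cycle 10, the second 24, the L code 9 and both libraries out 69. Leaving out each library in turn gave 282 to 849 calls, and 74 to 247 at 1.5-fold; ZT15 replicate 5 gave the lowest of each and ZT15 replicate 6 the highest, and replicate 1 gave 305 and 91. The replicate block left 0 genes called by edgeR at either threshold (2465 at an unadjusted p under 0.05); the labels state no pairing, and same-numbered libraries deviated together in 2 of 6 pairs, with correlations from -0.18 to 0.42. The tissue difference from cortex, 1017 genes, became 1646 with DESeq2, 23 with the first cycle (5 higher and 18 lower, against 566 and 451) and 535 without the mice of the 2 libraries; that from liver, 1962 genes, became 771 with the first cycle, and its split of 1166 higher and 796 lower became 884 and 916 with DESeq2's size factors and 1121 and 1123 with its Wald test. The cause of these shifts was not tested. The cycle settings use fewer samples. In the block settings, replicate numbers above 6 occur at ZT12 alone, and some L codes occur in 1 group alone. Libraries in such blocks add nothing to the estimated change. With the first cycle alone Chordc1 (edgeR adjusted p = 0.035), Pdia4 (0.035), Hspa1b (0.039), Dnajb1 (0.039), Creld2 (0.0402) and Lrrc29 (0.0366) stayed under the threshold, and Ciart (0.129), Dbp (0.133), Cirbp (0.102) and Hspa5 (0.139) did not. Depth limits the genes near 1 CPM, such as Hspa1b at ZT12.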
